A study of Mus musculus with 7 samples.

Results

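Granule neurons are the principal excitatory cells of the dentate gyrus, the first relay of the hippocampal circuit. They receive entorhinal input on their dendrites and send mossy fibre axons to neurons of the hilus and of CA3. They depend on the homeobox factor *Prox1* for their identity, and they are rich in the calcium buffer calbindin, whose loss from the dentate gyrus is a known feature of mice that carry mutant human APP. Nuclei of these neurons were chosen among the single nuclei of hippocampus by 4 transcripts that mark them: *Prox1*, the synaptic C1q-like protein *C1ql2*, the desmosome protein *Dsp* and the cation channel *Trpc6*. A nucleus was a member if it held at least 2000 and fewer than 50000 transcripts and more than 400 genes, at least 1 transcript of *Prox1*, at least 4 transcripts of the 4 genes together, at least 3 of them per 10000 transcripts, and at most 1 transcript of *Gad1* and *Gad2* together, the enzymes of GABA synthesis. This rule gave 5450 nuclei of the 32312 single nuclei within the same depth limits, which is 16.9%.

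The study asked how blocking the complement receptor C5aR1 changes the hippocampus of a mouse model of amyloid disease. WT mice (C57BL6/J) and Arctic48 mice on the same background (Arc, hemizygous for a human APP transgene with the Indiana, Swedish and Arctic mutations) drank plain water (veh) or the C5aR1 antagonist PMX205, a cyclic hexapeptide, at 20 µg/ml, for 12 weeks by the labels and for a slightly shorter time by the ages stated for the start and end of treatment, and all were perfused at 10 months of age. All mice were housed singly. Nuclei came from frozen hippocampus, 1 mouse to each first-round barcoding well, with 3 female (F1 to F3) and 3 male (M1 to M3) wells in each of the 4 combinations, called WT-veh and Arc-veh, WT-PMX and Arc-PMX. The 7 deposited libraries are sublibraries that each hold nuclei of every well, and a well, with its nuclei from every sublibrary, was the replicate (n = 6 per group). In its reporting summary the study left out 1 WT sample whose expression showed it to be Arctic, without naming it or its preparation, so all wells were kept here under their labels and each result was also computed without each well in turn. The mouse reference holds no human APP, so reads of the transgene can be counted only as mouse *App*.

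There were 84 to 445 members per well and 737 to 835 per sublibrary. WT-veh had 1586 members (103 to 445 per well), WT-PMX 1509 (142 to 414), Arc-veh 1194 (84 to 309) and Arc-PMX 1161 (84 to 262). The summed transcripts of a well's members ranged from 373587 to 5443808. Of the 5380 distinct barcodes, 69 occurred in more than 1 sublibrary, which covers 139 members. Those were kept as separate nuclei.

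The label was checked against genes that the rule did not use, with 7428 other excitatory nuclei as the reference (at least 1 transcript of the glutamate transporter *Slc17a7*, at most 1 of the 4 granule genes). Levels are scaled to CPM (counts per 1000000 transcripts) of all nuclei of a kind together, with no test, since the rule chose the nuclei by their expression. Other granule genes were far higher in the members. *Glis3*, a Krüppel-like zinc finger factor, stood at 1064 CPM against 19.6, and 96.1% of members against 10.2% of other excitatory nuclei held a transcript. *Stxbp6*, a SNARE-binding protein, stood at 834 against 24.1 CPM, *Dock10* at 1343 against 62.4 CPM, and *Rfx3*, a transcription factor, at 2131 against 238 CPM. *Calb1*, which encodes calbindin, was at 81.3 against 16.7 CPM. Markers of CA1 pyramidal neurons were low in the members, with *Mpped1* at 7.47 against 169 CPM and *Man1a* at 19.4 against 352 CPM. The CA3 adhesion gene *Nectin3* was at 9.24 against 132 CPM. Of the other 5 CA3 markers *Cdh24* (4.75 against 27.1 CPM) and *Galnt3* (17.1 against 30.6 CPM) were also lower in members, while *Cpne4* (444 against 494 CPM), *Npy2r* (9.26 against 7.74 CPM) and *Iyd* (6.79 against 4.20 CPM) were not clearly so. Markers of hilar mossy cells were near 0 in members and low in other excitatory nuclei too. *Calb2* was at 0.90 against 1.98 CPM, *Drd2* at 0.36 against 1.90 CPM and *Csf2rb2* at 0.50 against 4.32 CPM. The vesicular GABA transporter *Slc32a1* was near 0 in members (0.12 CPM) and in other excitatory nuclei (0.11 CPM). Granule neurons are known to make some *Gad1*, and the members held 24.9 CPM of *Gad1* against 0.88 CPM of *Gad2*. The rule limits both genes, so these levels are no check of the label. Higher in members were also *Adarb2* (2222 against 42.5 CPM, in 98.4% of members), *Erbb4* (105.9 against 24.3 CPM, and 30.4 CPM in the strict members described next) and *Vip* (0.76 against 0.04 CPM) of the interneuron list. *Lamp5*, *Ndnf* and *Reln* were lower. The astrocyte genes *Slc4a4* (860 against 54.0 CPM, in 93.1% of members) and *Slc1a3* (85.5 against 26.4 CPM) were higher, while *Slc1a2* was lower (196 against 297 CPM). All oligodendrocyte and microglial markers were higher, among them *St18* (324 against 67.1 CPM, and 201 CPM in strict members). By the other granule genes, and by the low CA1 levels, the members match their label. The mossy cell markers, low in both kinds of nuclei, add little to this. The source of the interneuron and glial transcripts was not tested.

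Some members also carried transcripts of other cells. Of the members 431 (7.91%, against 2.85% of other excitatory nuclei) held more than 2 transcripts of 4 oligodendrocyte genes. In addition 252 members, some of them the same nuclei, met the rule through *Prox1* alone. Without the 591 members of either kind, 4859 remained (89.2%). These are called the strict members here, and calls of named genes that were lost in them are given beside the main value.

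Nuclei near the limits of the rule were similar on its 2 sides. The 737 members with exactly 4 transcripts of the 4 genes had *Glis3* at 967.5 CPM and *Calb1* at 74.4 CPM. The 714 nuclei with exactly 3 transcripts, just outside, had *Glis3* at 969.1 CPM and *Calb1* at 66.8 CPM. These latter nuclei also look like granule nuclei, so the limit leaves some out. The 767 nuclei left out by *Gad1* and *Gad2* alone had *Glis3* at 917 CPM. The 106 nuclei with enough transcripts but fewer than 3 per 10000 were less granule-like, with *Glis3* at 415 CPM.

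The share of granule nuclei did not differ beyond the spread between wells. Members made up 16.5% ± 5.41 (SD, n = 6) of the nuclei of a WT-veh well, with a lowest, median and highest well of 10.1%, 17.0% and 22.3%. In WT-PMX the share was 18.1% ± 3.62 (11.8%, 19.1% and 21.6%), in Arc-veh 15.2% ± 5.63 (8.46%, 15.5% and 21.5%) and in Arc-PMX 15.2% ± 3.20 (9.51%, 15.3% and 18.4%). All groups overlapped. The difference Arc-veh minus WT-veh was -1.36 percentage points (two-sided exact permutation test over wells, p = 0.656, adjusted over 4 contrasts 0.874), where the smallest p this design can give is 0.002165. Arc-PMX differed from Arc-veh by 0.01 percentage points (exact permutation p = 1). Depth moved with genotype: the median transcripts per nucleus of a well were 4202 to 8585 in WT-veh (median well 5599), 3756 to 12000 in WT-PMX (6247), 4618 to 13770 in Arc-veh (9668) and 3708 to 15510 in Arc-PMX (8256). A rule that needs 4 transcripts finds more nuclei where depth is high, while its other limits left out deep nuclei. Nuclei left out by *Gad1* and *Gad2* alone had a median of 12259 transcripts. Those with fewer than 3 per 10000 had 23759, against 7870.5 in all members. Each nucleus was therefore also thinned to 2000 transcripts. The rule was changed for the thinned nuclei. It asked for fewer transcripts of the 4 genes and for none of *Gad1* and *Gad2*. The share by this changed rule was 3.07 percentage points lower in Arc-veh than in WT-veh (exact permutation, adjusted p = 0.0693 over 4 contrasts). A stricter rule of 6 transcripts gave a difference of 1.18 points in the other direction. A thinned share also depends on the level of the 4 rule genes, and their summed level in members was 1035 to 1259 CPM in WT-veh wells (median 1095) and 896.6 to 1327 CPM in Arc-veh wells (971.7). The part of this level in the shares was not tested.

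**Figure D1:**
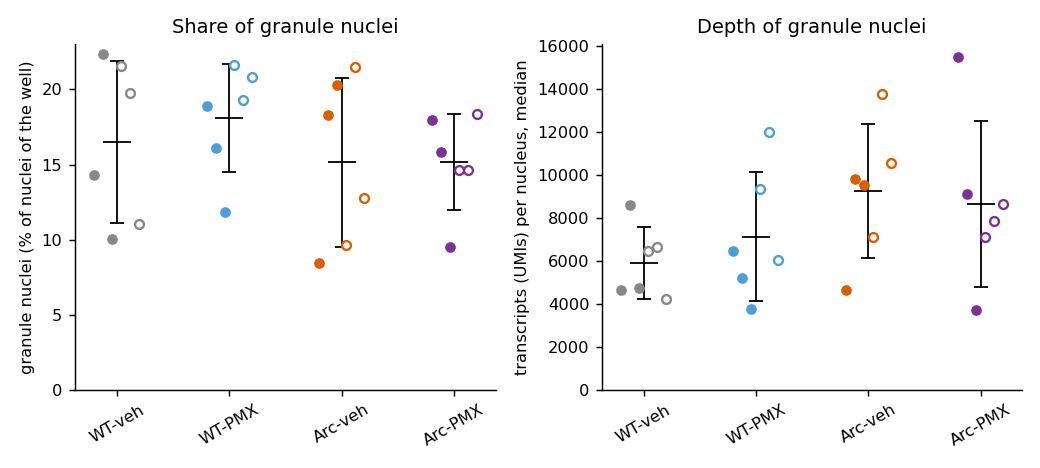
Share of granule nuclei among the nuclei of each well, in percent, and the median transcripts per granule nucleus of each well, by group (filled circles female wells, open circles male wells, black bars the mean ± SD of 6 wells). The 4 groups overlap in share (8.46% to 22.3% over all wells), while the median Arc-veh well is deeper than the median WT-veh well.

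No fall of *Calb1* with genotype was detected in these nuclei. Its level was 81.0 CPM on average in WT-veh, 79.9 in WT-PMX, 83.0 in Arc-veh and 77.8 in Arc-PMX. The difference Arc-veh minus WT-veh was 0.02 ± 0.17 on the log2 scale (SE, edgeR adjusted p = 0.9998). After thinning to 2000 transcripts, 14.8% ± 3.04 of WT-veh and 14.5% ± 3.98 of Arc-veh members held a *Calb1* transcript (SD, n = 6 wells), against at most 5.91% of other excitatory nuclei in any well. That difference was -0.238 percentage points (exact permutation p = 0.907). Unthinned, the share was higher in Arc-veh (43.7% against 34.2%, adjusted p = 0.398 by the exact permutation test), with the deeper Arc nuclei.

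Genotype changed a small number of genes. Counts of the members were summed per well, and 10632 genes with enough counts entered 1 quasi-likelihood fit by edgeR, over all 24 wells and with sex as a covariate. A gene was called at a Benjamini-Hochberg adjusted p under 0.05 over all genes tested. Between Arc-veh and WT-veh 20 genes were called (0.188% of those tested), of which 13 were higher (0.122%) and 7 lower (0.0658%) in Arc-veh. Between Arc-PMX and WT-veh 23 genes were called (0.216%), and between Arc-PMX and WT-PMX 24 (0.226%). The strict members alone gave 14, 15 and 16 calls over 9751 genes tested (0.144%, 0.154% and 0.164%). The p-values measure the spread between wells, each from 1 mouse as far as the methods say.

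A cadherin gene, *Dchs2* (chr3:83127948-83357209, plus strand, mm10), rose in Arc mice. It is of the Dachsous type, a family that sets the polarity of cells within a tissue by binding Fat cadherins. *Dchs2* stood at 3.6, 8.19 and 13.8 CPM in the lowest, median and highest WT-veh well. The WT-PMX wells were alike, at 4.70, 11.4 and 14.4 CPM. Arc-veh wells were higher, at 15.3, 30.6 and 49.3 CPM, as were Arc-PMX wells, at 12.5, 31.9 and 52.0 CPM. Of the 12 Arc wells, 11 were above every WT well. *Dchs2* was 4.25-fold higher in Arc-veh than in WT-veh (log2 2.09 ± 0.31, edgeR adjusted p = 0.0006397) and 3.39-fold higher in Arc-PMX than in WT-PMX (log2 1.76 ± 0.28, adjusted p = 0.0015). In strict members the first difference was 2.18 (adjusted p = 0.00021).

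*Stra6* (chr9:58063788-58153996, plus strand) encodes the membrane receptor that takes up retinol from retinol-binding protein. It is also a marker of granule neurons of the dorsal dentate gyrus. In WT-veh the lowest, median and highest well were at 39.6, 72.4 and 82.1 CPM. WT-PMX wells lay between 58.5 and 75.1 CPM (median 62.6). In Arc-veh the values were 94.2, 149.6 and 170.8 CPM and in Arc-PMX 96.8, 155.5 and 195.2 CPM, so that all 12 Arc wells were above all WT wells. The change was 2.08-fold in vehicle mice (log2 1.06 ± 0.16, edgeR adjusted p = 0.00079) and 1.19 ± 0.16 on the log2 scale in PMX205-treated mice (adjusted p = 0.00028).

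A long intergenic RNA, *6530403H02Rik* (chr3:120604109-120886733, minus strand), rose about as clearly. Its WT-veh wells were at 128, 172 and 244 CPM (lowest, median, highest), its WT-PMX wells at 138, 160 and 218 CPM, its Arc-veh wells at 300.5, 328 and 366 CPM and its Arc-PMX wells at 210.5, 331 and 400 CPM. Here 11 of 12 Arc wells were above every WT well. The difference was 0.89 ± 0.14 on the log2 scale in vehicle mice (edgeR adjusted p = 0.0014) and 0.96 in treated mice (adjusted p = 0.0006371). Among members of at least 5000 transcripts the first was no longer called.

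*Pard3b* (chr1:61638824-62642284, plus strand), a relative of the Par3 protein that organises cell polarity, also rose. Its wells were at 33.3, 50.9 and 70.2 CPM in WT-veh, 28.8, 50.2 and 66.6 CPM in WT-PMX, 73.1, 88.4 and 92.0 CPM in Arc-veh and 55.1, 90.2 and 108.8 CPM in Arc-PMX. Again 11 of 12 Arc wells exceeded all WT wells. The log2 differences were 0.76 ± 0.15 (edgeR adjusted p = 0.0205) in vehicle mice and 0.85 in treated mice (adjusted p = 0.0051). The call in vehicle mice was lost without WT-veh F1, F2 or M1, without Arc-veh F3 or with no covariate. In treated mice it was lost with those groups fitted alone. *Far2os2*, an antisense transcript at the *Far2* locus on chromosome 6 that was named after its values were seen, averaged 4.02 CPM in WT-veh, 6.53 in WT-PMX, 12.8 in Arc-veh and 11.7 in Arc-PMX. It rose in vehicle mice (log2 1.51 ± 0.31, adjusted p = 0.0276), while the difference in treated mice was 0.97 (adjusted p = 0.28). The *Far2os2* call in vehicle mice was lost without WT-veh F2, F3, M1, M2 or M3, without Arc-veh F3, M1 or M2, and over 5000 transcripts.

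**Figure D2:**
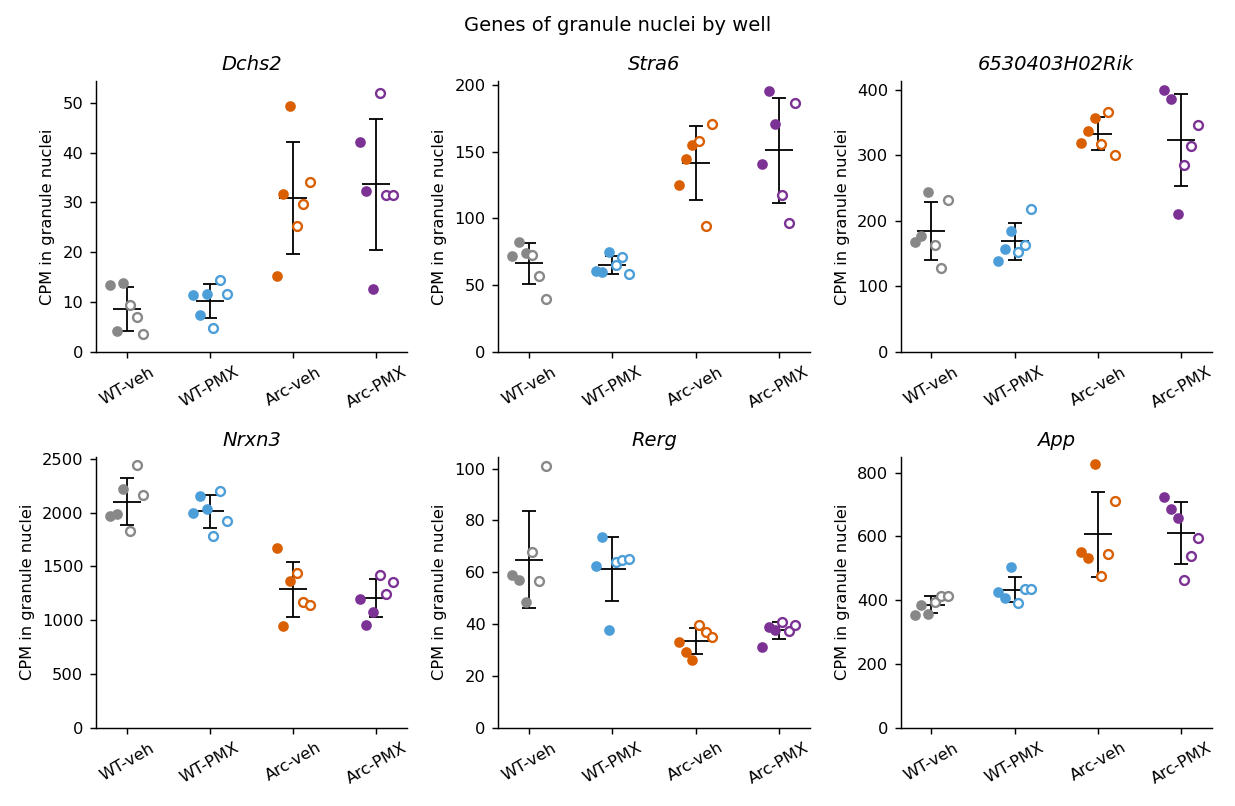
Level of 6 genes in the granule nuclei of each well, in CPM on a linear axis from 0, by group (filled circles female wells, open circles male wells, black bars the mean ± SD of 6 wells). In the panel of Stra6 all 12 Arc wells lie above all WT wells, in that of Nrxn3 all 12 lie below, and App, Rerg, Dchs2 and 6530403H02Rik overlap in 1 or more wells.

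Among genes that fell, *Nrxn3* (chr12:88722876-90334935, plus strand) was the most highly expressed. It encodes a neurexin, a presynaptic adhesion protein that pairs with ligands on the postsynaptic side. *Nrxn3* stood at 1833, 2075 and 2447 CPM in the lowest, median and highest WT-veh well and at 1781, 2016 and 2199 CPM in WT-PMX. In Arc-veh it was at 948, 1263 and 1673 CPM and in Arc-PMX at 954, 1218 and 1424 CPM. All 12 Arc wells were below all WT wells. The level in Arc-veh was 0.61 of that in WT-veh (log2 -0.71 ± 0.11, edgeR adjusted p = 0.00079), and treated mice differed by -0.74 (adjusted p = 0.0006371). Strict members gave -0.68 in vehicle mice (adjusted p = 0.0031).

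*Rerg* (chr6:137054825-137170497, minus strand), a small GTPase related to Ras, was at 48.4, 57.9 and 100.8 CPM in WT-veh, 37.5, 64.2 and 73.6 CPM in WT-PMX, 25.9, 34.0 and 39.6 CPM in Arc-veh and 31.1, 38.3 and 40.6 CPM in Arc-PMX. It overlapped between genotypes because of 1 low WT-PMX well, F3. *Rerg* fell in vehicle mice (log2 -0.95 ± 0.14, edgeR adjusted p = 0.0006397) and in treated mice (-0.73, adjusted p = 0.0102). The *Rerg* call in treated mice was lost with those groups fitted alone. It was also lost in strict members when those with microglial transcripts were left out as well. *Rerg* was called for Arc-PMX minus WT-veh too, a call lost in strict members. *Mcc*, named for its mutation in colorectal cancers, went from 77.4, 84.8 and 89.9 CPM in WT-veh to 45.3, 60.1 and 63.9 CPM in Arc-veh. Its treated wells were at 61.9, 75.7 and 101.1 CPM in WT-PMX and 34.7, 51.7 and 57.9 CPM in Arc-PMX. The *Mcc* differences were -0.60 ± 0.13 (adjusted p = 0.037) and -0.67 (adjusted p = 0.0131), and the first of them lost its call when any one of 13 wells was left out, each WT-veh well among them. The first was also lost with no covariate and over 5000 transcripts. The second was lost without WT-PMX M2 or Arc-PMX M3 and with the treated groups fitted alone.

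Falls that rested more on single wells were called for the zinc finger gene *Zfp385b* (chr2:77410634-77819639, minus strand), for *Pcolce2* (chr9:95637601-95698096, plus strand), an enhancer of procollagen processing, and for *2900026A02Rik* (chr5:113086323-113221236, minus strand). *Zfp385b* wells were at 109, 120 and 207 CPM in WT-veh, 103, 121 and 138 CPM in WT-PMX, 60.9, 85.8 and 101.8 CPM in Arc-veh and 61.9, 83.7 and 92.8 CPM in Arc-PMX. Every Arc well was below every WT well, with a log2 difference of -0.68 ± 0.15 (edgeR adjusted p = 0.046) that was lost in 18 of the 24 fits that left out 1 well, and of -0.58 in treated mice (adjusted p = 0.133). In strict members the *Zfp385b* difference in vehicle mice was -0.60 (adjusted p = 0.078). *Pcolce2* averaged 30.1 (WT-veh) and 17.4 CPM (Arc-veh) (-0.74 ± 0.16, adjusted p = 0.037) but differed by 0.01 between the treated groups (21.4 and 20.5 CPM, adjusted p = 0.9997), and its call was lost in 13 of these fits, among them each fit that left out 1 Arc-veh well, and each that left out 1 WT-veh well other than F2. *2900026A02Rik* averaged 53.3 and 45.2 CPM in the WT groups (vehicle, treated) and 31.3 and 32.1 CPM in the Arc groups, with -0.68 ± 0.15 in vehicle mice (adjusted p = 0.038) and -0.50 in treated mice (adjusted p = 0.28). Its call in vehicle mice was lost in 17 of these fits and in strict members (-0.61, adjusted p = 0.143). The transcript *1700016P03Rik*, named after its values were seen, averaged 7.66 (WT-veh) and 1.16 CPM (Arc-veh) (adjusted p = 0.038), had too few counts to be tested in strict members and lost its call in 13 of the fits without 1 well, with no covariate and in nuclei of at least 5000 transcripts.

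*App* (chr16:84949685-85173766, minus strand), the precursor of amyloid β, was higher in Arc wells, where transgene reads may be counted with it. Its WT-veh wells were at 353, 390 and 414 CPM and its WT-PMX wells at 390, 430 and 505 CPM. Arc-veh wells stood at 476, 548 and 827 CPM and Arc-PMX wells at 463, 627 and 723 CPM, so that 10 of 12 Arc wells were above all WT wells. The difference was 1.57-fold in vehicle mice (log2 0.65 ± 0.11, edgeR adjusted p = 0.0039), and in treated mice 0.49 ± 0.11 with an adjusted p of 0.0528, where DESeq2 made the call. The *App* call in vehicle mice was lost among members of at least 5000 transcripts. How much of it is mouse *App* and how much the human transgene cannot be told apart in these counts. Of the other 8 tested genes of the list of *App* and secretase subunits none was called, and the median of the 9 was 0.01 on the log2 scale.

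A further set of genes called higher in Arc-veh is best known from glia or blood-derived cells. *C4b* (chr17:34728380-34743882, minus strand), the complement component C4, was at 0, 1.80 and 6.0 CPM in the lowest, median and highest WT-veh well and at 4.06, 27.3 and 64.7 CPM in Arc-veh. WT-PMX wells were at 1.07, 3.15 and 11.6 CPM and Arc-PMX wells at 8.93, 33.2 and 72.9 CPM. *C4b* rose by 3.28 ± 0.57 on the log2 scale in vehicle mice (edgeR adjusted p = 0.0039) and by 2.81 in treated mice (adjusted p = 0.0102), where the call was lost without WT-PMX F1 or M2. It had too few counts to be tested in the strict members. *Tgfbr2*, the type II receptor for TGFβ, averaged 8.87 (WT-veh) and 28.0 CPM (Arc-veh) (1.72 ± 0.33, adjusted p = 0.012), and in strict members the difference was 1.43 (adjusted p = 0.122). The *Tgfbr2* call was lost without WT-veh F2 or M1 or without Arc-veh F3.

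The leukocyte receptor *Cd84*, the growth factor *Igf1*, the adaptor *Sh3bp2* and the platelet and macrophage protein *Plek* were also called, the first 3 named after their values were seen. *Cd84* averaged 1.38 (WT-veh) and 11.8 CPM (Arc-veh) (log2 3.08, edgeR adjusted p = 0.0006397), and all 12 Arc wells were above all WT wells. *Igf1* averaged 1.56 and 7.74 CPM (2.82, adjusted p = 0.0076) and *Sh3bp2* 1.26 and 8.02 CPM (2.42, adjusted p = 0.0036). The *Igf1* call was lost without WT-veh F2. *Plek* averaged 12.9 and 26.4 CPM (1.06 ± 0.23, adjusted p = 0.037), against a difference of 0.49 in strict members (adjusted p = 0.68), and its call was lost in 10 of the 24 fits without 1 well. Microglial transcripts had a higher median in both Arc groups, while the wells of all groups overlapped. The summed level of 7 microglial markers in the members was 24.95 to 249 CPM in WT-veh wells (median 86.4), 36.9 to 137 in WT-PMX (75.3), 36.9 to 215 in Arc-veh (127) and 80.6 to 407 in Arc-PMX (104). In strict members the medians were 25.7, 30.4, 58.2 and 62.7 CPM in the same order, with *C1qa* at 0 in WT-PMX. Strict wells overlapped too, at 19.9 to 55.2 CPM in WT-veh and 22.3 to 85.4 CPM in Arc-veh. The summed oligodendrocyte markers of all members had medians of 1016, 985, 719 and 993 CPM in the same order. Those of astrocytes had 1032, 1158, 1130 and 1158 CPM. The source of the transcripts of this set was not tested. *Cd84*, *Igf1* and *Sh3bp2* had too few counts to be tested in strict members. Members with microglial transcripts were left out as well in an alternative added after seeing the data. There the difference was 0.23 for *Plek* (edgeR adjusted p = 0.877) and 0.60 for *Tgfbr2* (adjusted p = 0.744), and neither was called. The others of this set, *C4b*, *Cd84*, *Igf1* and *Sh3bp2*, had too few counts to be tested there.

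*AY036118*, a transcript at the ribosomal RNA repeats (chr17:39847113-39848035), was called higher in Arc-veh through 2 wells. Its median well was at 227 CPM in WT-veh, 194 in WT-PMX, 367 in Arc-veh and 221 in Arc-PMX, while Arc-veh M1 held 9230 CPM and F3 held 2294 CPM. The log2 difference was 3.27 ± 0.68 (edgeR adjusted p = 0.033), and without Arc-veh M1 it was 1.56 (adjusted p = 0.2245). Other excitatory nuclei of the same wells showed it too, at 1920 CPM in Arc-veh against 218 CPM in WT-veh.

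A second pair of groups, Arc-PMX against WT-PMX, shares no well with Arc-veh against WT-veh and was added as an alternative. Of the 20 genes called in vehicle mice and the 24 called in treated mice 12 were shared, which is 60.0% of the first and 50.0% of the second. The shared genes were *Dchs2*, *Stra6*, *6530403H02Rik*, *Pard3b*, *C4b*, *Cd84*, *Igf1*, *Sh3bp2*, *Tgfbr2*, *Nrxn3*, *Rerg* and *Mcc*, and 19 of the 20 genes had the same sign in both. Without WT-PMX M2 the treated comparison had 10 calls, with *C4b*, *Cd84*, *Igf1*, *Sh3bp2* and *Mcc* no longer among them. In the strict members 7 genes were shared (50.0% of 14 and 43.8% of 16), namely *Dchs2*, *Stra6*, *6530403H02Rik*, *Pard3b*, *Nrxn3*, *Rerg* and *Mcc*. Both comparisons come from 1 fit with 1 estimate of the spread. Genes called in treated mice alone included *Homer2* (chr7:81600481-81707527, minus strand), a postsynaptic scaffold that ties glutamate receptors to calcium stores. *Homer2* was at 18.0, 25.6 and 31.6 CPM in WT-veh, 22.0, 29.8 and 34.5 CPM in WT-PMX, 29.4, 39.2 and 47.2 CPM in Arc-veh and 38.2, 51.4 and 55.1 CPM in Arc-PMX. Its differences were 0.73 in treated mice (edgeR adjusted p = 0.033), 0.62 ± 0.16 in vehicle mice (adjusted p = 0.163) and 0.95 ± 0.16 for Arc-PMX minus WT-veh (adjusted p = 0.0028). The *Homer2* call between the treated groups was lost in strict members (0.65, adjusted p = 0.0921), over 5000 transcripts, with those groups fitted alone and in 9 of the 24 fits without 1 well.

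**Figure D3:**
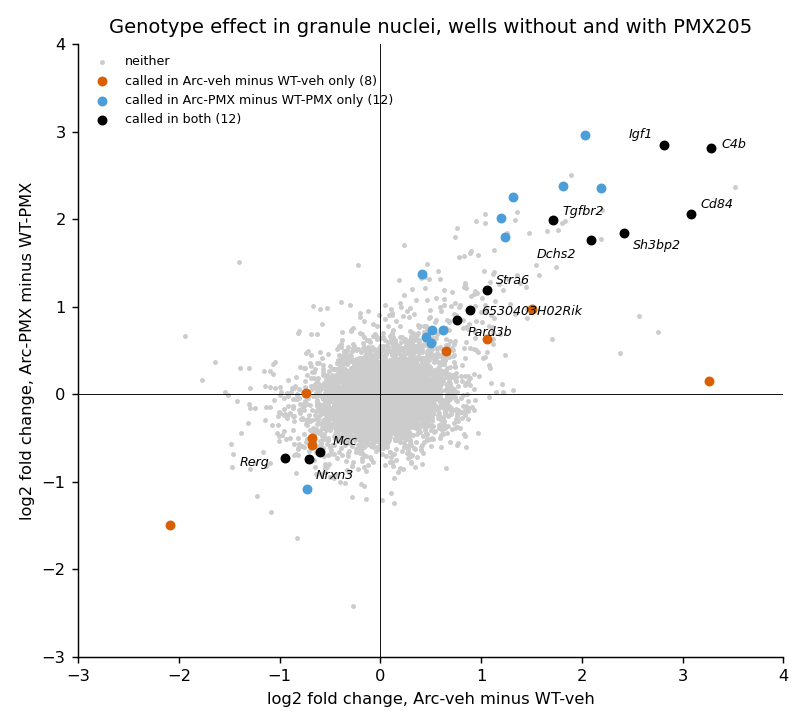
Log2 fold change of Arc-veh minus WT-veh (horizontal) against Arc-PMX minus WT-PMX (vertical), with no well in common, for the genes tested in granule nuclei that fall within the axes. Grey points are genes called in neither comparison. The 12 genes called in both lie at the upper right and lower left, 8 were called in vehicle mice alone and 12 in treated mice alone.

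Further genes passed in a comparison with Arc-PMX and not in vehicle mice, and whether the treatments differed is given by the tests of PMX205 that follow. *Onecut1* (chr9:74861921-74891781, plus strand), a homeodomain factor, averaged 34.8 CPM in WT-veh, 34.4 in WT-PMX, 23.0 in Arc-veh and 17.4 in Arc-PMX, and fell in treated mice (log2 -1.08, edgeR adjusted p = 0.029) with -0.73 in vehicle mice (adjusted p = 0.256). *Camk2d* (chr3:126596302-126846326, plus strand), a subunit of calcium/calmodulin-dependent kinase II, rose in treated mice (0.66, adjusted p = 0.038) with 0.45 in vehicle mice (adjusted p = 0.30), a call lost in strict members (0.64, adjusted p = 0.0921). *Greb1l* averaged 87.4 (WT-PMX) and 131 CPM (Arc-PMX) and rose in treated mice (0.59, adjusted p = 0.032), with 0.50 in vehicle mice (adjusted p = 0.13). *Phactr1* (chr13:42680623-43138526, plus strand), which binds actin and protein phosphatase 1, averaged 1158 (WT-veh) and 889 CPM (Arc-PMX) (-0.38 ± 0.08, adjusted p = 0.0165), a call lost without WT-veh F2 or F3 or Arc-PMX F1 or M1, with both groups fitted alone and in nuclei of at least 5000 transcripts. Also called for Arc-PMX minus WT-veh were *Myo1e* (chr9:70207350-70399766, plus strand), a class I myosin, and *N4bp2l1* (chr5:150571644-150597188, minus strand). *Myo1e* averaged 10.2 (WT-veh) and 46.8 CPM (Arc-PMX), with Arc-PMX F3 highest at 120.3 CPM (2.00 ± 0.44, adjusted p = 0.049). *N4bp2l1* averaged 56.2 (WT-veh) and 38.4 CPM (Arc-PMX) (-0.53 ± 0.12, adjusted p = 0.049). Their calls were lost in 14 and 20 of the 24 fits without 1 well and in strict members (2.08, adjusted p = 0.171, and -0.53, adjusted p = 0.124). The long intergenic RNA *Gm44724* (chr7:83327738-83369429) rose by 0.74 in treated mice (adjusted p = 0.047). The calls in treated mice were lost in 7 of the 24 fits without 1 well for *Onecut1* and for *Greb1l*, in 9 for *Camk2d* and in 10 for *Gm44724*, and for all 4 with those groups fitted alone or over 5000 transcripts. *Gm44724* also lost its call under 1% mitochondrial transcripts and with the replicate number as a block. Low in the members, and chosen after their values were seen, the leukocyte genes *Ptprc* (2.36, adjusted p = 0.048), *Myo1f* (2.25, adjusted p = 0.042) and *Gpnmb* (1.37, adjusted p = 0.041) and the mitochondrial folate enzyme *Aldh1l2* (1.79, adjusted p = 0.0015) also rose in treated mice. In strict members *Gpnmb* (0.73, adjusted p = 0.974) and *Aldh1l2* (0.97, adjusted p = 0.807) were not called, and *Ptprc* and *Myo1f* had too few counts to be tested.

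PMX205 changed no gene past the threshold. Arc-PMX minus Arc-veh gave 0 calls of 10632 genes (0.0%) by edgeR and 0 by DESeq2, with 217 genes at an unadjusted p under 0.05 by edgeR. WT-PMX minus WT-veh gave 0 by both tools (307 unadjusted), and the difference of the PMX205 effects between genotypes 0 by both (282 unadjusted). For genes that genotype changed, the difference Arc-PMX minus Arc-veh is given with its error, and none was called. It was 0.10 ± 0.25 on the log2 scale for *Dchs2*, 0.09 ± 0.15 for *Stra6*, -0.02 ± 0.14 for *6530403H02Rik*, 0.07 ± 0.14 for *Pard3b*, -0.09 ± 0.11 for *Nrxn3*, 0.18 ± 0.14 for *Rerg* and 0.0003 ± 0.11 for *App*. It was 0.32 ± 0.15 for *Homer2* (edgeR adjusted p = 0.9999). *AY036118*, with its high level in 2 Arc-veh wells, had -2.96 ± 0.68 (adjusted p = 0.9999). These errors leave room for changes of the size of 1 or 2 SE in either direction.

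Shares of nuclei with a transcript lay in the same direction as the levels. With each member thinned to 2000 transcripts, a *Dchs2* transcript was found in 1.68% and 2.03% of WT members (vehicle, then treated) and in 4.75% and 6.0% of Arc members, as means over wells. Other excitatory nuclei held one in 3.06% to 9.06% per well, so that the share in Arc members reached their range. *Stra6* was found in 12.6%, 10.9%, 24.0% and 24.6% of members in the same order, against at most 4.49% of other excitatory nuclei in any well. For *Nrxn3* the shares were 81.8%, 85.0%, 72.7% and 73.4%, and for *Rerg* 10.4%, 12.2%, 6.44% and 7.10%. Before thinning, *Dchs2* was in 4.11% of WT-veh and 20.5% of Arc-veh members. The 141 Arc members with a *Dchs2* transcript after thinning held a mean of 0.340 thinned *Stra6* transcripts against 0.294 in the 2214 Arc members without, higher in 6 of 12 wells. For *Nrxn3* the means were 3.09 and 2.44 (higher in 8 of 12 wells), for *App* 1.24 and 1.33 (higher in 1) and for *Mcc* 0.0851 and 0.112 (higher in 2), with no test.

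Of the genes that follow neuronal activity none was called, and most of those tested had values below 0. The labels name inhibitors of transcription in the perfusion of the mice, while the methods name them for the microglial preparation only. Of 22 activity-regulated genes 10 had enough counts to be tested. None of the 10 was called in vehicle mice by edgeR or DESeq2 (6 at an unadjusted p under 0.05, where 869 of all 10632 genes, 8.17%, were), and their median log2 difference was -0.49, against 0.006 over all genes. In treated mice the median was also -0.49, with 0 called and 5 at an unadjusted p under 0.05 (4.86% of all genes). *Nr4a3*, a nuclear receptor induced by calcium influx, averaged 11.9 CPM in WT-veh, 11.7 in WT-PMX, 5.69 in Arc-veh and 5.31 in Arc-PMX (-1.09 ± 0.33 in vehicle mice, adjusted p = 0.26, and -1.35 ± 0.33 in treated mice, adjusted p = 0.1085). *Bdnf*, the neurotrophin that mossy fibres store and release, averaged 55.5, 56.1, 39.0 and 32.4 CPM in the same order (-0.51 ± 0.20, adjusted p = 0.48). *Homer1* averaged 87.5 (WT-veh) and 71.9 CPM (Arc-veh) (-0.26 ± 0.12, adjusted p = 0.59). *Sorcs3*, a sorting receptor of the postsynaptic density on the same list, averaged 185, 144, 110 and 97.1 CPM and was called lower in vehicle mice in the strict members alone (-1.07, adjusted p = 0.040, against -0.81 ± 0.22 and 0.183 in all members).

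**Figure D4:**
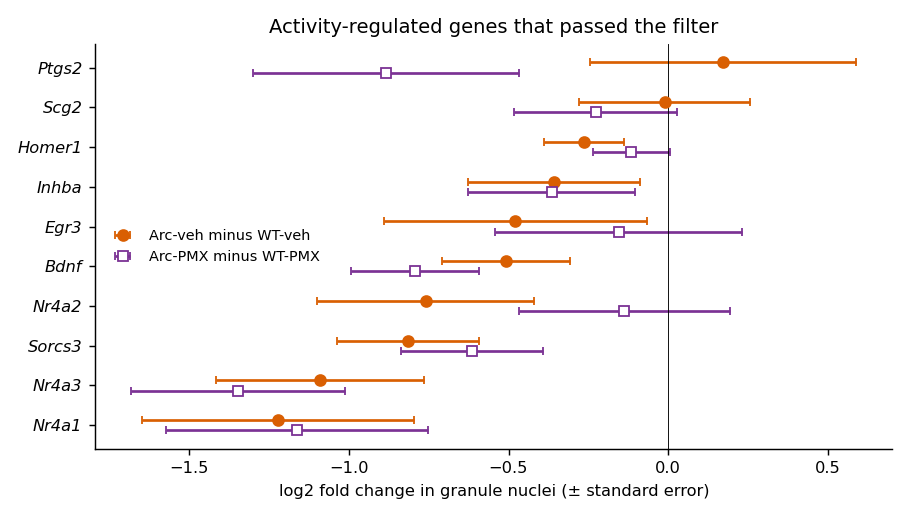
Log2 fold change ± SE of the 10 activity-regulated genes with enough counts, in granule nuclei, for Arc-veh minus WT-veh and for Arc-PMX minus WT-PMX. The medians over the 10 genes are both -0.49, with Nr4a1 lowest in vehicle mice at -1.22 and none of the genes called.

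The genes best known for early responses were too low to test. *Fos* averaged 0.70 and 0.59 CPM in the WT groups (vehicle, then treated) and 0.31 and 0.65 CPM in the Arc groups. In the same order *Arc*, the synaptic immediate early gene, averaged 0.72, 2.38, 0.18 and 0.34 CPM, and *Egr1* 1.58, 1.45, 0.41 and 0.12 CPM. *Nptx2*, a synaptic pentraxin of active neurons, averaged 2.50 (WT-veh) and 0.68 CPM (Arc-veh). None of 8 neuropeptide genes could be tested, *Npy* (at most 0.58 CPM in a group) and *Penk* (0.88 CPM in WT-veh, 0.54 in Arc-veh) among them. *C5ar1*, the target of PMX205, averaged 0.13, 0, 0.40 and 0.16 CPM, which is the level of single transcripts in a well.

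Channels and receptors of the granule neuron showed no called gene between the genotypes in vehicle mice by edgeR or DESeq2. Of all genes tested 0.188% were called and 8.17% were at an unadjusted p under 0.05. The lists held 17 of 17 tested genes of calcium buffering and signalling (median log2 difference -0.06, 1 at an unadjusted p under 0.05), 15 GABA receptor and chloride transporter genes (-0.05, 2 unadjusted), 20 glutamate receptor genes (-0.03, 2 unadjusted) and 23 potassium and HCN channel genes (-0.01, 1 unadjusted). Between Arc-PMX and WT-veh edgeR called none of them, and DESeq2 called the potassium channel subunit *Kcnip2* and, of the activity-regulated genes, *Sorcs3*. *Camk4*, a calcium-dependent kinase of the nucleus, had the lowest value of the calcium list in both sets of wells (-0.52, edgeR adjusted p = 0.38, and -0.69, adjusted p = 0.145).

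Of the granule markers that the rule did not use 0 of 13 were called by either tool in vehicle mice, with 4 at an unadjusted p under 0.05 (8.17% of all genes), and differences from -0.49 for the polo-like kinase *Plk5* to 0.22 for *Rfx3*. Of 8 genes of immature neurons 3 were tested and 0 called by either tool (0 at an unadjusted p under 0.05). *Dcx*, the microtubule protein of newborn neurons, averaged 14.9 (WT-veh) and 14.5 CPM (Arc-veh) (log2 0.11 ± 0.24, of opposite sign to the difference of these means and within its error). Of 4 markers of dorsal granule neurons only *Stra6* was called, 3 were at an unadjusted p under 0.05, and the median of the 4 was -0.18. *Spata13* (-0.53 ± 0.21, edgeR adjusted p = 0.48) and *Gsg1l* (-0.42 ± 0.16, adjusted p = 0.44) had the opposite sign to *Stra6*. *Lct*, which marks the same dorsal neurons, averaged 54.8 and 60.1 CPM (0.06 ± 0.21). The 3 ventral markers gave 0 calls by either tool (1 at an unadjusted p under 0.05, median -0.07). *Grp*, which encodes gastrin-releasing peptide, averaged 5.33 (WT-veh) and 2.71 CPM (Arc-veh) (-0.83 ± 0.37, edgeR adjusted p = 0.55) and differed by -1.64 ± 0.41 in treated mice (adjusted p = 0.12). In the opposite direction stood *Trhr*, the receptor for thyrotropin-releasing hormone, at 21.5 (WT-veh) and 27.6 CPM (Arc-veh) (0.48 ± 0.28, edgeR adjusted p = 0.70). Among 12 complement genes and regulators 7 were tested and *C4b* alone was called. *Csmd1*, a membrane regulator of complement in neurons, averaged 6160 (WT-veh) and 6343 CPM (Arc-veh) (0.04 ± 0.08, adjusted p = 0.96).

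Several genotype changes differed between the granule nuclei and the other excitatory nuclei of the same wells. The difference between the populations was tested as an interaction in 1 edgeR fit over both, with the well as a block and 12317 genes tested. The other excitatory nuclei are a mix of neuron types. Their summed CA1 markers had a median well of 580 CPM with WT-veh, against 676 with Arc-veh. The CA3 medians were 760 against 605, and the mossy cell medians 9.28 against 4.84. Wells of these groups overlapped for CA1 and CA3 markers but not for mossy cell markers. In the members the summed mossy cell markers, though low, went the other way. Their lowest, median and highest well were 0, 0.205 and 1.16 CPM in WT-veh. In Arc-veh these were 0.972, 3.52 and 8.80 CPM. *Csf2rb2*, 1 of these markers, was at 0 in members of WT-veh and of WT-PMX. The part of these shifts in the interactions was not tested. For Arc-veh minus WT-veh 9 genes were called (0.0731%), 2 with a change that was higher (0.0162%) and 7 with one that was lower (0.0568%) in granule nuclei. *Dchs2* averaged 49.3 CPM in other excitatory nuclei of WT-veh and 45.0 CPM in Arc-veh (log2 -0.14 ± 0.18), and its interaction was 2.33 ± 0.34 (adjusted p = 0.0013). In granule nuclei of the same wells it averaged 8.55 and 30.9 CPM. *Nrxn3* went from 6635 to 5582 CPM in other excitatory nuclei (-0.25 ± 0.08, adjusted p = 0.35), with an interaction of -0.49 ± 0.08 (adjusted p = 0.0092). *Mcc* stood at 36.3 and 48.2 CPM there (0.39 ± 0.19, adjusted p = 0.57), with an interaction of -0.99 ± 0.19 (adjusted p = 0.031).

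The other 6 genes of this test were chosen by it. *Pcsk1*, the prohormone convertase, averaged 4.90 (WT-veh) and 0.786 CPM (Arc-veh) in granule nuclei and 21.6 and 21.2 CPM in other excitatory nuclei, an interaction of -2.67 ± 0.53 (edgeR adjusted p = 0.031). In granule nuclei alone *Pcsk1* had too few counts to be tested, while the interaction fit also used the counts of other excitatory nuclei. *Pdzd2*, a PDZ protein, was at 566 and 487 CPM in granule and 76.0 and 105.2 CPM in other excitatory nuclei (-0.72 ± 0.15, adjusted p = 0.049). *Hs6st2*, a heparan sulfate sulfotransferase (-0.95 ± 0.19, adjusted p = 0.031), *Dpy19l3*, a mannosyltransferase (-0.78 ± 0.15, adjusted p = 0.031), and *Fbln2*, a matrix protein (-1.51 ± 0.31, adjusted p = 0.049), also differed in the lower direction. *St8sia6*, a sialyltransferase, differed in the higher direction (1.75 ± 0.34, adjusted p = 0.031), with 2.77 and 4.75 CPM in granule and 26.3 and 15.7 CPM in other excitatory nuclei, and in strict members it was not called (1.22, adjusted p = 0.44).

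For other genes the difference between the populations was not called. *Stra6* was at 6.23 and 4.94 CPM in other excitatory nuclei of WT-veh and Arc-veh, with an interaction of 1.33 ± 0.35 that was not called (edgeR adjusted p = 0.146). *App* stood at 524 and 677 CPM there (log2 0.37 ± 0.07, adjusted p = 0.0504), and the interaction was 0.26 (adjusted p = 0.278). *Rerg* stood at 126 and 81.3 CPM (-0.65 ± 0.16, adjusted p = 0.20), with an interaction of -0.24 (adjusted p = 0.90). *Homer2* averaged 104 CPM in other excitatory nuclei of WT-veh and 109 CPM in Arc-PMX, and its interaction for Arc-PMX minus WT-veh was 0.90 ± 0.13 (adjusted p = 0.00067). That second contrast, which shares the WT-veh wells with the first, called 4 genes (0.0325%), the others being *Dchs2* (2.60), *Nrxn3* (-0.65) and *Mcc* (-1.05).

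In the strict members 26 genes (0.218% of 11930) differed from other excitatory nuclei for Arc-veh minus WT-veh, 7 with a higher (0.0587%) and 19 with a lower change (0.159%). For Arc-PMX minus WT-veh 11 did (0.0922%). Chosen after their values were seen, *Il1rapl2*, of the interleukin-1 receptor family, averaged 38.7 (WT-veh) and 15.4 CPM (Arc-veh) members but 128.9 and 224.8 CPM in other excitatory nuclei, and its interaction in strict members was -2.01 (edgeR adjusted p = 0.0061). *Sorcs3* was at 504 and 516 CPM in other excitatory nuclei, with -1.09 in strict members (adjusted p = 0.031). *6530403H02Rik* was also called there (0.76, adjusted p = 0.025), against 0.70 and an adjusted p of 0.119 with all members.

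**Figure D5:**
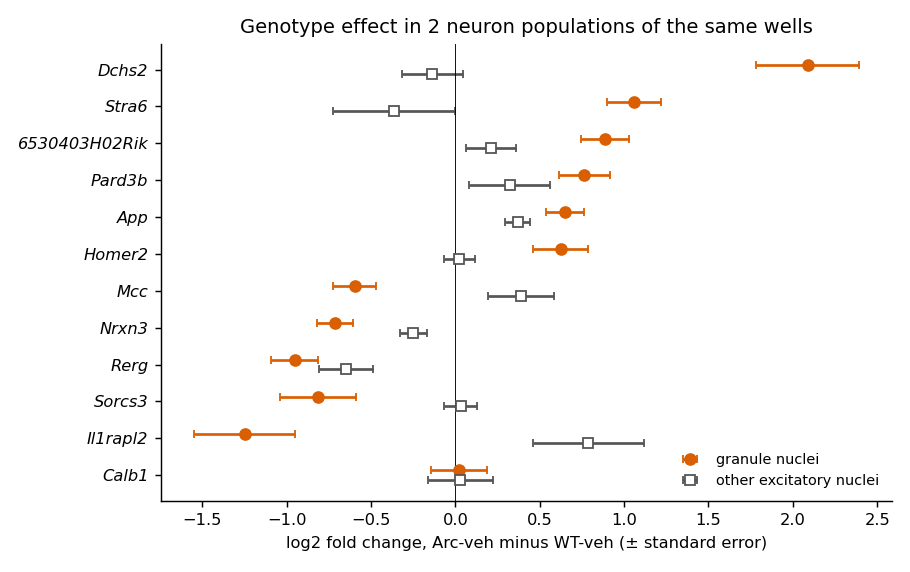
Log2 fold change ± SE of Arc-veh minus WT-veh in granule nuclei and in other excitatory nuclei of the same wells, for 12 genes. Dchs2 is at 2.09 in granule and -0.14 in other excitatory nuclei, Mcc at -0.60 and 0.39, and Rerg at -0.95 and -0.65.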

How the data were processed

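Nuclei of all 24 single-nucleus wells were taken from the 7 sublibraries. The authors deposited raw transcript counts per barcode and gene, made from Parse Evercode libraries by split-pipe on mm10 without normalization, with a sample sheet that ties each first-round well to genotype, treatment and sex. Gene positions come from the GENCODE vM21 annotation (55536 of 55536 IDs matched). Members and lists were chosen with earlier results of these data known. No doublet caller was run. The fit of strict members left out nuclei with oligodendrocyte transcripts, and a further fit also left out those with microglial transcripts. Nuclei with transcripts of other cells, such as astrocytes, stayed in both. Other excitatory nuclei held at most 1 *Gad1* or *Gad2* transcript.

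Counts of members were summed per well (at least 10 nuclei each) and compared by edgeR 4.0.16 in R 4.3.3 (limma 3.58.1): filterByExpr by group, TMM, quasi-likelihood fit of the 4 groups with sex, and Benjamini-Hochberg adjustment at 0.05. Group levels are means of the wells' CPM. The SE of an edgeR difference is its absolute size divided by the square root of its quasi-likelihood F statistic. Such an SE is approximate, most of all for differences near 0. Shares were compared by exact permutation over wells (scipy 1.17.1). Depth is 373587 to 5443808 transcripts per well. Precision is read from the spread over 6 wells.

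Named were up to 12 genes per direction and contrast with the largest change, adjusted p under 0.05, a mean log2 CPM of at least 4 and the same sign in females and males alone, then called members of the 13 lists and a set of fixed genes. Others are marked as chosen after their values were seen. Alternatives were RLE scaling, DESeq2 1.42.0, no filter, no covariate, pairs of groups alone, a replicate block, members under 1% mitochondrial transcripts, strict members, members over 5000 transcripts, no ribosomal RNA transcripts, each sex alone and each well left out. Added after seeing the data were Arc-PMX minus WT-PMX, strict members without microglial transcripts, the fit without WT-veh F3 and M3 (which hold few oligodendrocyte nuclei), the strict and second interaction fits and the thinned shares of single genes. The edgeR steps were tested on simulated data.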

Additional observations from a re-analysis of the deposited data

Results flagged for a closer look

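The change with genotype differed between granule and other excitatory nuclei in 13 cases, by the interaction test. For Arc-veh minus WT-veh these were *Dchs2* (log2 2.33), *St8sia6* (1.75), *Nrxn3* (-0.49), *Pdzd2* (-0.72), *Dpy19l3* (-0.78), *Hs6st2* (-0.95), *Mcc* (-0.99), *Fbln2* (-1.51) and *Pcsk1* (-2.67). Of these *Pcsk1* had too few counts to be tested in granule nuclei alone. For Arc-PMX minus WT-veh they were *Dchs2* (2.60), *Homer2* (0.90), *Nrxn3* (-0.65) and *Mcc* (-1.05). Whether the mix of neuron types among other excitatory nuclei, or mossy cell transcripts among members, had a part in these cases was not tested.

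One well stood apart from the other 5 of its group in 8 of 104 groups tested, by the size of its gap, where chance gives about 1 in 20. *AY036118* was at 9230 CPM in Arc-veh M1 (other wells 226.5 to 2294) and at 619 CPM in Arc-PMX F3 (173.6 to 246.7). In Arc-PMX F3 *Myo1e* stood at 120.3 CPM (other wells 26.0 to 45.3) and *Tgfbr2* at 82.7 CPM (20.0 to 37.2). *Onecut1* was at 54.88 CPM in WT-veh M2 (other wells 24.2 to 34.4). *Rerg* was at 100.8 CPM in WT-veh M3 (48.4 to 67.6), at 37.53 CPM in WT-PMX F3 (62.5 to 73.6) and at 31.08 CPM in Arc-PMX F1 (37.2 to 40.6).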

How the results depend on the processing

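No value changed sign under any alternative where it had been called. For the named genes, 1393 of 1777 alternative values kept their side of the threshold and 384 lost the call. *Dchs2*, *Stra6*, *Nrxn3*, *Rerg*, *App* and *6530403H02Rik* kept their calls for Arc-veh minus WT-veh in all 24 fits that left out 1 well. So did *C4b*, *Cd84* and *Sh3bp2*, which had too few counts to be tested in strict members. Fits of a single sex have 3 wells per group. The cause of the changes below was not tested.

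Arc-veh minus WT-veh, with 20 calls, had 36 with DESeq2 (all 20 among them), 190 with no filter, 10 with the 2 groups alone, 12 over 5000 transcripts, 11 in strict members without microglial transcripts, 12 without WT-veh F3 and M3, 0 in females (543 unadjusted) and 0 in males (604 unadjusted). Leaving out 1 well gave 10 to 22, with 12 without WT-veh F1, 11 without F2, 13 without F3, 10 without M1, 12 without M3 and 12 without Arc-veh F3. Arc-PMX minus WT-veh, with 23, had 42 with DESeq2, 138 with no filter, 15 in strict members, 15 in those without microglial transcripts, 14 over 5000 transcripts, 3 in females, 0 in males (384 unadjusted) and 15 to 28 without 1 well (15 without Arc-PMX F1). Arc-PMX minus WT-PMX, with 24, had 169 with no filter, 8 with the 2 groups alone, 11 over 5000 transcripts, 16 in strict members, 11 in those without microglial transcripts, 6 in females, 0 in males (508 unadjusted) and 10 to 28 without 1 well (11 without WT-PMX F1, 15 without F2, 11 without M1, 10 without M2). With no filter, there were 35 calls for Arc-PMX minus Arc-veh, 9 for WT-PMX minus WT-veh and 21 for the difference of these effects. With the filter, leaving out any 1 well gave 0 calls in each of the 3. The interaction in strict members gave 26 calls against 9, and 11 against 4 for the second contrast.

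The share of granule nuclei differed by -3.07 percentage points when thinned, with the rule changed for that depth. It differed by 1.18 with the stricter rule and 2.45 over 5000 transcripts, none past the threshold.

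Replicate numbers name a sex and an order, and the columns of the sample sheet used here name no litter. Wells of one number in different groups correlated by -0.1295 to 0.3479 (median 0.09015, 17 of 36 pairs over 0.1), and wells of different number had a median of -0.0207 (38 of 180 over 0.1). Same-numbered wells thus had the higher median. They also share sex, while wells of different number can differ in it. As not every same-numbered pair was over 0.1, these wells were not taken as pairs, and this choice is not a test of pairing. With the replicate block the contrasts had 23, 25 and 33 calls, and 16 of the 20 for Arc-veh minus WT-veh were shared (lost were *Pcolce2*, *Plek*, *1700016P03Rik* and *AY036118*).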
